A study of Homo sapiens and Mus musculus with 10 samples.

Results

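MOLM-13 is an established human acute myeloid leukaemia line, and its vehicle-treated state is described here gene by gene from 3 of the 10 RNA sequencing libraries of the series. The 3 libraries were taken by their labels: MOLM-13 cells given DMSO, the solvent, and no inhibitor. The series was made to ask how blocking the histone acetyltransferase KAT6A changes leukaemia cells, so its other libraries hold MOLM-13 cells given the KAT6A inhibitor WM-1119 and a mouse myeloid line, and they enter no value below. The cells grew in RPMI medium with fetal bovine serum and antibiotics. The labels give no duration for the DMSO treatment and do not state whether the 3 libraries came from separate cultures, so the spread between them may be technical. All values are from 1 cell line, which limits what they say of MLL-rearranged leukaemia in general.

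As background, MOLM-13 carries a fusion of the histone methyltransferase gene KMT2A (MLL) with MLLT3 (AF9) and an internal tandem duplication in the receptor tyrosine kinase gene FLT3. MLL fusion proteins recruit elongation factors and the methyltransferase DOT1L to chromatin and keep HOXA genes and their cofactor MEIS1 transcribed, a programme that normal cells shut off as they leave the stem and progenitor stage. Normal neutrophil precursors make their granule proteins in a fixed order, the primary (azurophil) granules at the promyelocyte stage and the secondary and tertiary granules later, while monocyte precursors take another branch.

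The deposited unit is TPM (transcripts per 1000000), a share of all transcripts of a library corrected for transcript length, so levels of different genes can be set side by side. TPM keep no read depth, so the depth is unknown and no counting interval is given. A gene is called expressed here at 1 TPM or more in all 3 libraries, low below 1 TPM in all 3, and mixed otherwise. Of 19110 protein-coding symbols, 10347 (54.1%) were expressed, 7978 (41.7%) were low and 785 (4.11%) were mixed. Values are given for libraries 1, 2 and 3 in that order, and ± is the SD over the 3 libraries (n = 3). With 1 group there is no test, and each count of a gene list is read beside the 54.1% of all protein-coding symbols.

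**Figure D1:**
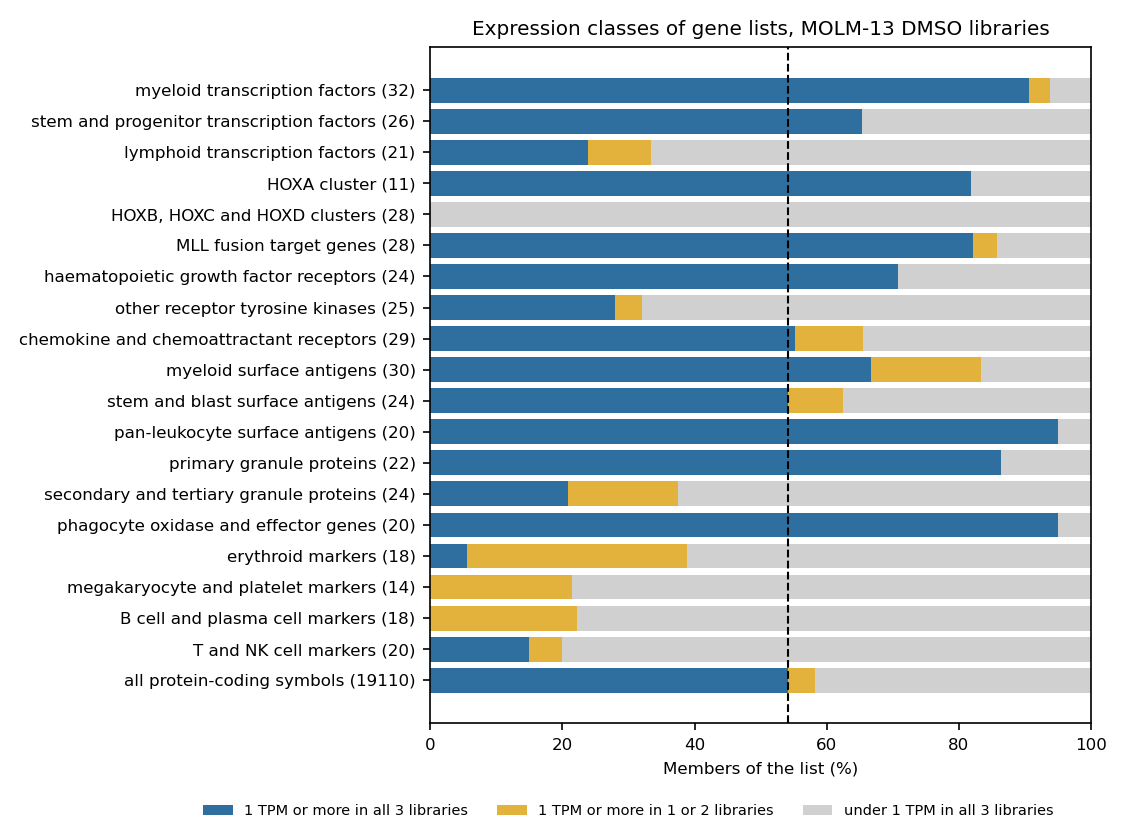
Each bar is a gene list, with the number of measured members in brackets. Blue is the percentage at 1 TPM or more in all 3 MOLM-13 DMSO libraries, yellow in 1 or 2 of them and grey in none, and the dashed line is the 54.1% of all protein-coding symbols. Pan-leukocyte antigens (19 of 20), phagocyte effector genes (19 of 20) and myeloid transcription factors (29 of 32) lie far to the right of the line, and HOXB, HOXC and HOXD genes (0 of 28) at its far left.

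Of 32 myeloid transcription factors 29 were expressed at 1 TPM, 1 was mixed and 2 were low. At a threshold of 5 TPM in all 3 libraries, 19 of the 32 were expressed, against 41.4% of all protein-coding symbols. The most abundant was CEBPA, which commits progenitors to the granulocyte and monocyte branch, at 382, 334 and 292 TPM (336 ± 44.7). SPI1, which encodes PU.1, the ETS factor required for all myeloid cells, stood at 263, 252 and 248 TPM (254 ± 7.78) and was among the steadiest of them, with a coefficient of variation (CV, the SD divided by the mean) of 3.06%. IRF8, which directs monocyte and dendritic cell fate, was at 269, 132 and 131 TPM. Library 1 held about as much IRF8 as both other libraries together, so its CV was 44.8%. CEBPD was at 109, 118 and 137 TPM, GFI1, a repressor that favours granulocytes over monocytes, at 61.8, 60.2 and 51.5 TPM, and RUNX1, a core factor of blood formation, at 45.7, 51.2 and 25.3 TPM.

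Some members of the same list were scarce. CEBPE, which switches on secondary granule genes in maturing neutrophils, reached 1.95, 2.52 and 1.66 TPM, far below CEBPA. KLF4, a factor of monocyte maturation, was at 4.89, 2.36 and 1.74 TPM. MAF, a macrophage factor, was low, with a highest value of 0.0239 TPM. The mixed member was EGR2, an early growth response factor, at 0.144, 5.50 and 0.462 TPM, so only library 2 put it over 1 TPM. In RNA from bulk cells, fewer cells of a type and less RNA per cell cannot be told apart. FOS, an immediate early gene, was at 209, 35.5 and 13.3 TPM, a 15.7-fold range, and EGR1, another, at 29.2, 23.9 and 4.56 TPM. Both were highest in library 1 and lowest in library 3.

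The stem and progenitor factors split into an abundant and a silent set, with 17 of 26 expressed (65.4%) and 9 low. MYB, which keeps progenitors dividing, was at 221, 178 and 146 TPM, and MYC, the growth regulator, at 157, 127 and 170.0 TPM. LMO2, a bridging protein of stem cell transcription complexes, was at 131, 155 and 134 TPM, and LYL1, with which it forms complexes, at 49.97, 57.8 and 60.3 TPM. BMI1, a Polycomb protein of self-renewal, was at 167, 118 and 96.1 TPM, and MEF2C, a factor of myeloid and lymphoid progenitors, at 61.4, 63.7 and 48.3 TPM. GATA2, which maintains stem and early progenitor cells, was at 18, 42.7 and 17.1 TPM, with library 2 far above both others.
The low members included factors known from stem cells. The highest value of ERG was 0.246 TPM, of HLF 0.0517 TPM, of MECOM, whose product is EVI1, 0.056 TPM and of TAL1 0.0965 TPM, while PRDM16, MYCN and NKX2-3 were listed at 0 in all 3 libraries.

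Regulators of other lineages were looked at in the same way. Among 10 genes listed as erythroid and megakaryocyte factors 6 were expressed, or 60%, near the 54.1% of all symbols. The 6 include HBS1L, which does not encode a transcription factor. Of these, NFE2 (54.5, 51.3 and 30.9 TPM) and FLI1 (31.4, 36.1 and 24.1 TPM) also act in myeloid cells. GATA1, the master factor of red cells and platelets, reached at most 0.162 TPM, KLF1, the activator of adult globin genes, 0.613 TPM and GFI1B 0.594 TPM. Of 21 lymphoid factors 5 were expressed, a share of 23.8%. The most abundant was the broadly used E protein TCF3 at 70.6, 51.9 and 42.2 TPM, followed by the receptor NOTCH1 at 15.8, 17.6 and 11.6 TPM. PAX5 and EBF1, which fix B cell identity, stayed at or under 0.0251 and 0.0756 TPM, GATA3, needed for T cells, was listed at 0, and BCL11B reached 0.021 TPM. TOX and PRDM1 were mixed, TOX at 0.408, 0.559 and 1.98 TPM and PRDM1 at 1.20, 0.861 and 0.72 TPM.

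The expressed HOX genes all lay in a single cluster. Of the 11 HOXA genes 9 were expressed and 2 low, against 0 of the 28 genes of the HOXB, HOXC and HOXD clusters, 23 of which were listed at 0 in all 3 libraries. The highest value of any of those 28 was 0.189 TPM, for HOXB7. HOXA9, whose product drives leukaemic self-renewal together with MEIS1, was the most abundant at 93.4, 76.1 and 55.2 TPM (74.9 ± 19.1). HOXA10 followed at 31.9, 22.6 and 16.9 TPM and HOXA11 at 18.8, 14.6 and 9.62 TPM. All 3 genes were highest in library 1 and lowest in library 3, and 61.7% of all expressed genes were also highest in library 1.
The level varied along the cluster, which runs on the minus strand of chromosome 7 (GRCh38, GENCODE release 29). HOXA2 (chr7:27100354-27102811) was low at 0.31, 0.242 and 0.104 TPM. HOXA3 and HOXA4 were expressed at 5.51, 5.30 and 5.20 and 2.53, 1.54 and 1.99 TPM, HOXA5, HOXA6 and HOXA7 had means of 11.3 ± 4.87, 10.2 ± 3.97 and 10.1 ± 3.97 TPM, and the peak lay at HOXA9 (chr7:27162435-27175180). HOXA13, the last gene (chr7:27193503-27200106), was at 1.68, 1.91 and 1.54 TPM. Outside the cluster SKAP2, on the side away from HOXA13, was at 20.3, 26.6 and 18.8 TPM, and EVX1, beyond HOXA13, was listed at 0. HOXA9 and HOXA10 overlap in the annotation, and HOXA3 as annotated spans HOXA4, HOXA5 and HOXA6, so the split of reads between these neighbours is uncertain.

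The TALE homeobox proteins bind DNA together with HOX proteins, and 6 of 11 were expressed (54.5%, about the 54.1% of all symbols). PBX3, the partner of HOXA9 in MLL-rearranged leukaemia, was at 57.97, 52.9 and 39.2 TPM and MEIS1 at 17.1, 13.3 and 13.03 TPM. PBX2 stood at 40.7, 35.2 and 38.5 TPM, while PKNOX2 was low, with a highest value of 0.0228 TPM. MEIS2 was mixed at 0.583, 1.58 and 1.09 TPM.
All 16 fusion partners and cofactors of MLL were expressed. DOT1L, the histone H3 lysine 79 methyltransferase, was at 43.1, 60.4 and 35.2 TPM, MLLT1 (ENL), an elongation complex subunit, at 56.2, 43.6 and 37.4 TPM and MEN1, which encodes menin and tethers MLL to DNA, at 33.2, 25.3 and 23.4 TPM. The genes of the fusion itself were the least abundant of the list, KMT2A at 4.81, 4.02 and 2.26 TPM and MLLT3 at 1.47, 1.80 and 1.06 TPM. A gene-level value can hold reads of the fused and of the intact allele and does not separate them.

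**Figure D2:**
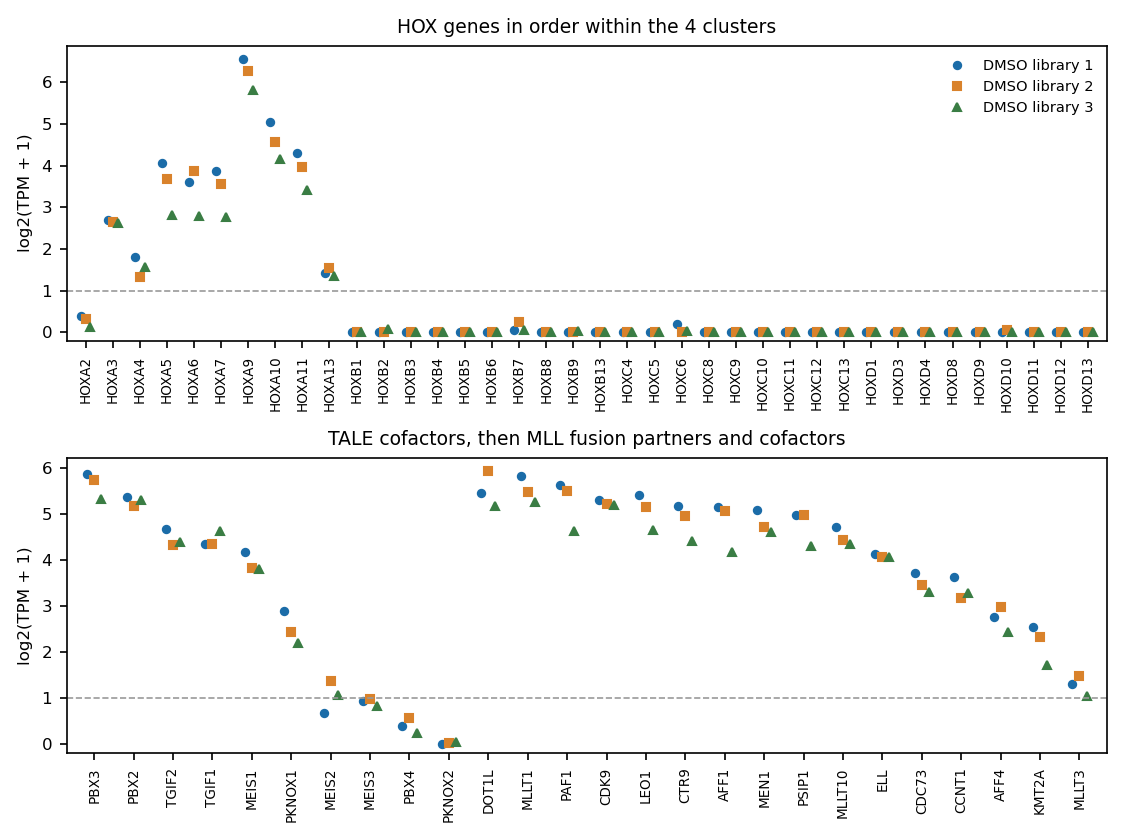
The upper panel plots log2(TPM + 1) of HOX genes in order within their clusters and the lower panel that of TALE cofactors and of MLL fusion partners and cofactors, sorted by level within each list. Each symbol is 1 MOLM-13 DMSO library, the dashed line is 1 TPM, and HOXA9 stands at 93.4, 76.1 and 55.2 TPM while no HOXB, HOXC or HOXD gene passes 0.189 TPM.

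Of 28 genes that MLL fusion proteins are known to bind or maintain, 23 were expressed, 1 was mixed and 4 were low, a share of 82.1%. The most abundant was LAMP5, a lysosome-associated membrane protein typical of MLL-rearranged leukaemia, at 285, 196 and 180.1 TPM. CDK6, a kinase of cell cycle entry, was at 50.4, 39.9 and 32.5 TPM, BCL2, the survival factor, at 43.5, 58.2 and 54.6 TPM, and JMJD1C at 37.8, 30.1 and 31.3 TPM. ZC3H12C was mixed at 0.544, 1.19 and 0.406 TPM. The low members included TET1, EYA1 and PROM1, and PROM1, which encodes the stem cell antigen CD133, was listed at 0.
All 14 genes of the MYST acetyltransferase complexes were expressed. KAT6A, the enzyme that the series targets with its inhibitor, was at 22.8, 18.7 and 13.6 TPM (18.3 ± 4.63). Its paralogue KAT6B was at 9.38, 10.1 and 6.81 TPM, KAT7 at 27.8, 26.96 and 17.4 TPM, KAT8 at 33.6, 27.8 and 30.8 TPM and KAT5 at 33.8, 30.5 and 19.5 TPM. BRPF1, the scaffold subunit that KAT6A and KAT6B bind, was at 15.9, 15.8 and 11.2 TPM, and every other member of the list was expressed too.

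Receptors for blood growth factors were expressed in 17 of 24 cases (70.8%), and the remaining 7 were low. FLT3, the mutated receptor of the line, led them at 178, 167 and 148 TPM (164 ± 15.1) and ranked 519 among all protein-coding genes by mean TPM. CSF3R, the G-CSF receptor, was at 96.9, 108 and 82.5 TPM. IL3RA, the IL-3 receptor alpha chain CD123, was at 61.3, 117 and 58.03 TPM, and CSF1R, the M-CSF receptor of monocytes, at 17.6, 39.1 and 15.8 TPM. Both were clearly highest in library 2, with libraries 1 and 3 close to each other.
The shared signalling chain of the IL-3 and GM-CSF receptors, CSF2RB, was scarcer than its partners, at 7.83, 7.03 and 5.54 TPM against 34.4, 41.9 and 26.8 TPM for the GM-CSF receptor chain CSF2RA. KIT, the stem cell factor receptor, reached at most 0.435 TPM. The IL-5 receptor chain IL5RA stayed at or under 0.0979 TPM. EPOR, the erythropoietin receptor, was expressed at 9.89, 15.5 and 10.99 TPM.

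Downstream of FLT3, 31 of 32 signalling genes were expressed. PTPN6, which encodes the phosphatase SHP-1, led at 286, 287 and 226 TPM, and PIM1, a kinase gene induced by STAT5, was at 114, 271 and 239 TPM. STAT5A and STAT5B were at 19.4, 18.3 and 17.3 and 21.4, 24.6 and 18.2 TPM, and the STAT5 target genes CISH and SOCS2 at 44.5, 39.2 and 67.8 and 68.5, 54.7 and 48.3 TPM. SPRY4 was the 1 low member, at up to 0.636 TPM.
Of 25 other receptor tyrosine kinases only 7 were expressed, a share of 28%. CSF1R led them, followed by the insulin receptor INSR at 12.2, 15.7 and 9.53 TPM, EPHB4 at 10.3, 8.68 and 7.83 TPM, RET at 8.46, 10.1 and 8.04 TPM and AXL at 2.24, 10.4 and 4.45 TPM. EGFR, MET, PDGFRA and KDR, kinases of epithelial, stromal and endothelial cells, each stayed at or under 0.122 TPM. FLT1 was mixed at 0.109, 2.29 and 0.313 TPM, over 1 TPM in library 2 alone.

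Interferon, TNF and TGF-beta receptors were expressed in 15 of 21 cases (71.4%). TNFRSF1A led them at 84.9, 97.8 and 61.3 TPM, followed by TNFRSF1B at 67.2, 78.4 and 46.5 TPM. TNFRSF10B, the TRAIL receptor DR5, was at 49.1, 42.99 and 62.5 TPM, and IFNGR1, of the interferon gamma receptor, at 51.9, 46.3 and 43.2 TPM. BMPR2 was mixed, with 0.99 TPM in library 3 and 1.37 TPM at most.
Among 29 chemokine and chemoattractant receptors 16 were expressed, or 55.2%, close to the 54.1% of all symbols. CXCR4, which holds cells in the marrow, led at 101, 129 and 84.2 TPM. P2RY8 was at 89.6, 103 and 62.8 TPM and the sphingosine-1-phosphate receptor S1PR4 at 71.2, 86.5 and 61.4 TPM, while S1PR1 was listed at 0. CCR2, the receptor that brings monocytes into tissue, was at 33.9, 31.8 and 28.1 TPM. The formyl peptide receptors of mature neutrophils and monocytes were low, FPR1 at up to 0.198 TPM, FPR2 at up to 0.0317 TPM and FPR3 at up to 0.0221 TPM. Of the 3 mixed members, C5AR1 was at 0.0252, 1.88 and 2.03 TPM and CCR7 at 0.336, 1.01 and 0.536 TPM.

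Few cytokines were made, with 12 of 31 expressed (38.7%), 6 mixed and 13 low. MIF, macrophage migration inhibitory factor, was the most abundant at 1295, 1327 and 1354 TPM. The chemokine CCL5 was at 122, 503 and 305 TPM, TGFB1 at 81.5, 198 and 105 TPM, VEGFA, the vascular growth factor, at 19.8, 72.2 and 99.2 TPM and TNF at 20.5, 32.4 and 30.002 TPM. CCL3 and CCL4, inflammatory chemokines, stood out in library 2, with CCL3 at 2.77, 54.4 and 5.78 TPM and CCL4 at 0.374, 18.4 and 0 TPM, and the neutrophil attractant CXCL8 was at 5.07, 34.5 and 1.28 TPM. FLT3LG, the FLT3 ligand, was expressed at 1.75, 3.22 and 3.63 TPM. KITLG, the ligand of KIT, was low at up to 0.0725 TPM, and the growth factor genes CSF2, CSF3 and THPO and the cytokine genes IL6 and IFNG were listed at 0. The other mixed members were ANGPT1 (0.581, 4.61 and 3.62 TPM), IL32 (0.795, 3.30 and 2.59 TPM), HGF (0.722, 0.926 and 1.23 TPM), IL1B (0.422, 1.65 and 0.574 TPM) and CSF1 (0.186, 1.14 and 0.26 TPM).

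**Figure D3:**
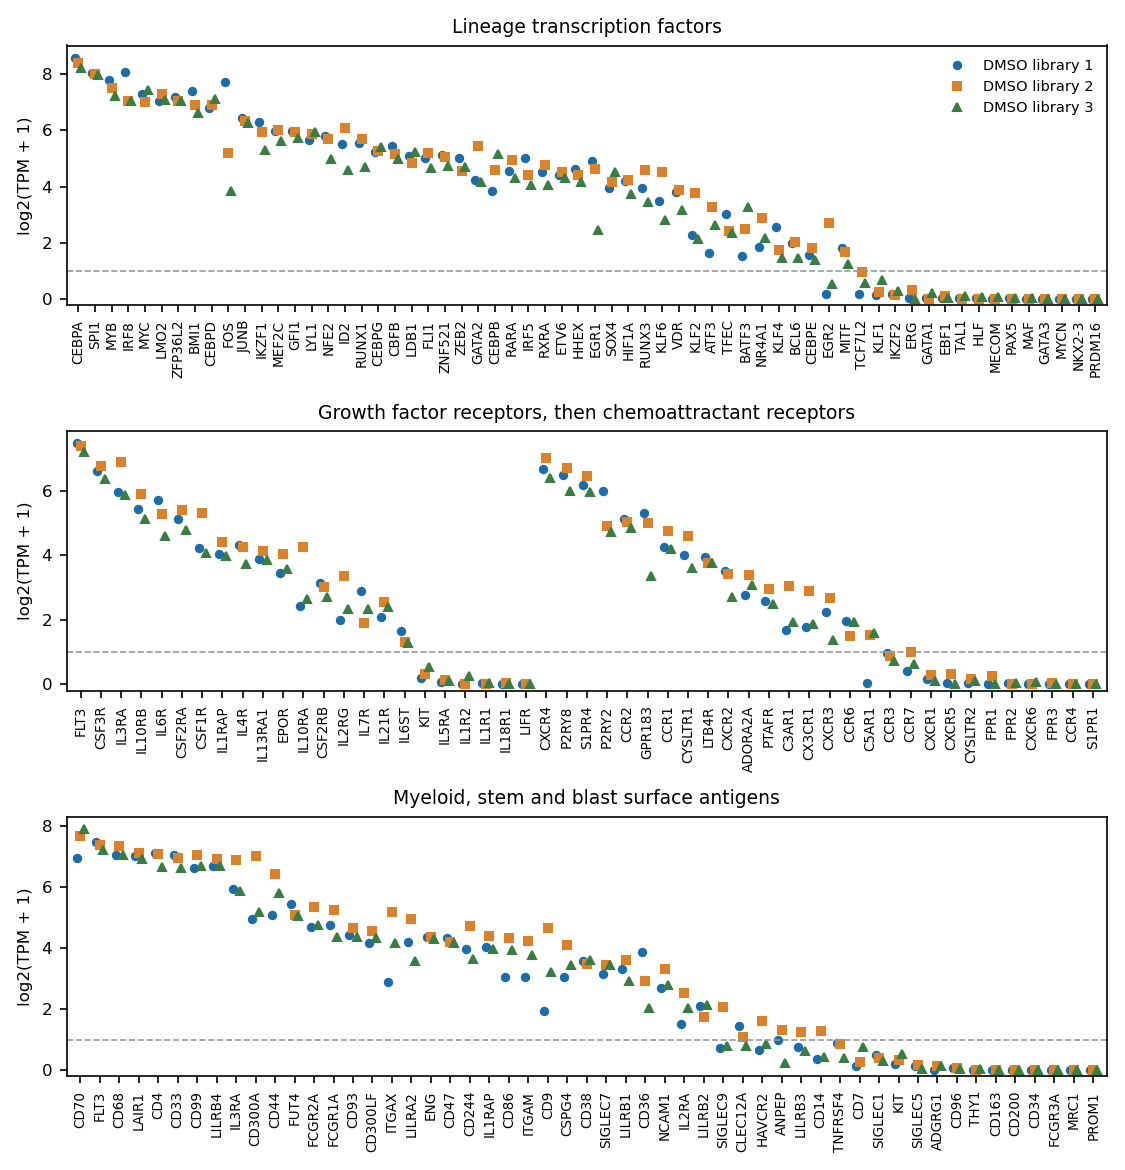
Each panel plots log2(TPM + 1) of named genes in the 3 MOLM-13 DMSO libraries (1 symbol per library), with a dashed line at 1 TPM. Lineage transcription factors are on top, growth factor receptors and then chemoattractant receptors in the middle, and myeloid, stem and blast surface antigens at the bottom, each sorted by level. CEBPA (382, 334 and 292 TPM), FLT3 (178, 167 and 148 TPM) and CD70 (123, 206 and 242 TPM) stand at the left ends, and CD34 is listed at 0.

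Of 30 myeloid surface antigens 20 were expressed (66.7%, against 54.1% of all symbols), 5 were mixed and 5 were low. CD33, the sialic acid receptor used as a marker of myeloid blasts, was at 134, 125 and 99.5 TPM (119.6 ± 18), and CD4, which monocytic cells also carry, at 139, 137 and 100.2 TPM. CD68, a lysosomal antigen of the macrophage line, was at 132, 162 and 131 TPM, the inhibitory receptor LAIR1 at 129.6, 138 and 119.9 TPM and LILRB4 at 103, 120.1 and 103 TPM.
CD14, the endotoxin co-receptor that defines classical monocytes, was mixed at 0.288, 1.42 and 0.345 TPM, and CD163, MRC1 and FCGR3A, antigens of macrophages and non-classical monocytes, were low, with MRC1 and FCGR3A listed at 0. The other mixed members were SIGLEC9 (0.646, 3.18 and 0.716 TPM), CLEC12A (1.75, 1.13 and 0.735 TPM), ANPEP, which encodes CD13 (1.01, 1.52 and 0.175 TPM), and LILRB3 (0.689, 1.39 and 0.558 TPM). CD300A, an inhibitory receptor, was at 30.1, 128 and 35.7 TPM, far higher in library 2 than in the others. ITGAM, which encodes CD11b, was at 7.26, 17.7 and 12.7 TPM, and ITGAX, which encodes CD11c, at 6.42, 35.2 and 17.2 TPM, both lowest in library 1 and highest in library 2.

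Stem and blast antigens were expressed in 13 of 24 cases (54.2%), about the same share as all symbols. CD70, a TNF family ligand carried by leukaemic blasts, was at 123, 206 and 242 TPM, CD99 at 99.7, 132 and 103 TPM and CD44, the hyaluronan receptor, at 33.3, 86.7 and 55.9 TPM. CD38 was at 10.9, 10.1 and 11.2 TPM and CD47, the signal against phagocytosis, at 19.1, 17.6 and 16.96 TPM. CD34, PROM1 and CD200 were listed at 0 in every library, and THY1 (CD90) reached 0.0219 TPM. HAVCR2, which encodes TIM-3, was mixed at 0.589, 2.07 and 0.825 TPM.
Pan-leukocyte antigens were expressed in 19 of 20 cases, led by CD63 at 291, 259.5 and 236 TPM, SPN (CD43) at 157, 181 and 145 TPM and CD37 at 96.9, 157 and 165 TPM. PTPRC, which encodes CD45, was at 39.2, 67.4 and 37.4 TPM. Of 20 genes of the integrin list 12 were expressed (60%, near the 54.1% of all symbols). The list also holds FERMT3, which was expressed and encodes the adaptor kindlin-3, not an integrin. ITGAL and ITGB2, the 2 chains of LFA-1, were at 356, 395 and 248 and 211, 308 and 228 TPM. ITGA4 and ITGB1, the chains of the fibronectin and VCAM1 receptor VLA-4, were at 32.2, 24.4 and 16.1 and 60.6, 63.3 and 47.2 TPM, and ITGA5, of another fibronectin receptor, at 110.2, 238 and 95.9 TPM. ITGA6 was mixed at 1.13, 1.18 and 0.85 TPM, and the platelet integrin genes ITGA2B and ITGB3 were low, at up to 0.349 and 0.0456 TPM.

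Granule genes differed sharply between the primary list and the secondary and tertiary list. The lists do not strictly separate stages. The primary list also holds the eosinophil markers EPX, PRG2, RNASE2 and RNASE3, and the other list the receptor gene CXCR2. Of 22 measured primary granule genes 19 were expressed (86.4%), with a median mean level of 127 TPM, against 2.83 TPM for all protein-coding symbols. Of 24 secondary and tertiary granule genes 5 were expressed (20.8%), 4 were mixed and 15 were low, with a median of 0.176 TPM. PRTN3, which encodes the serine protease proteinase 3, was at 7490.3, 4364 and 3422 TPM (5092 ± 2129.8), rank 24 of all protein-coding genes. SRGN, which encodes serglycin, the proteoglycan that packs granule proteases, was at 4907, 3551 and 2532 TPM. AZU1, which encodes the antimicrobial protein azurocidin, was at 2076, 1743 and 1540.2 TPM and ELANE, which encodes neutrophil elastase, at 2268, 1259 and 1318 TPM. LYZ, lysozyme, was at 1969, 1465 and 607 TPM, and CTSG, cathepsin G, at 419, 378 and 332 TPM. PRTN3, SRGN, AZU1 and LYZ were all highest in library 1 and lowest in library 3, and CTSG likewise, but ELANE was lowest in library 2. Of the 19 expressed primary granule genes 13 were highest in library 1, 4 in library 2 and 2 in library 3. Of all expressed genes 61.7% were highest in library 1.
MPO, which encodes myeloperoxidase, the commonest marker of primary granules, was far below the proteases, at 34.8, 39.996 and 10.6 TPM (28.5 ± 15.7). PRSS57 (871, 714 and 890.2 TPM) and CFD (885, 585 and 881 TPM) encode 2 more serine proteases of myeloid cells. DEFA3 and DEFA4, the defensin genes of late promyelocytes, were listed at 0, GZMB was low at up to 0.0897 TPM, and DEFA1 was not analysed here. DEFA1 and DEFA3 are near-identical copies, so the value of DEFA3 is uncertain.

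Among the secondary and tertiary granule genes CHI3L1, which encodes the secreted chitinase-like protein YKL-40, was the exception at 86.3, 98.8 and 71.4 TPM. ORM1 was at 7.13, 9.18 and 19.1 TPM, CXCR2, the CXCL8 receptor, at 10.3, 9.66 and 5.57 TPM, HP, haptoglobin, at 8.34, 4.85 and 1.25 TPM and MMP25 at 1.08, 1.69 and 2.20 TPM. LTF (lactoferrin), LCN2 (lipocalin 2), MMP8 (neutrophil collagenase), OLFM4, CRISP3, CEACAM6 and ALPL were listed at 0 in all 3 libraries, and CAMP, the cathelicidin gene, reached 0.815 TPM. The mixed members SLPI (0.897, 1.05 and 1.65 TPM), PTX3 (1.12, 1.63 and 0.518 TPM), QPCT (0.181, 1.02 and 0.547 TPM) and MMP9 (0.101, 1.09 and 0.323 TPM) never passed 2 TPM.

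**Figure D4:**
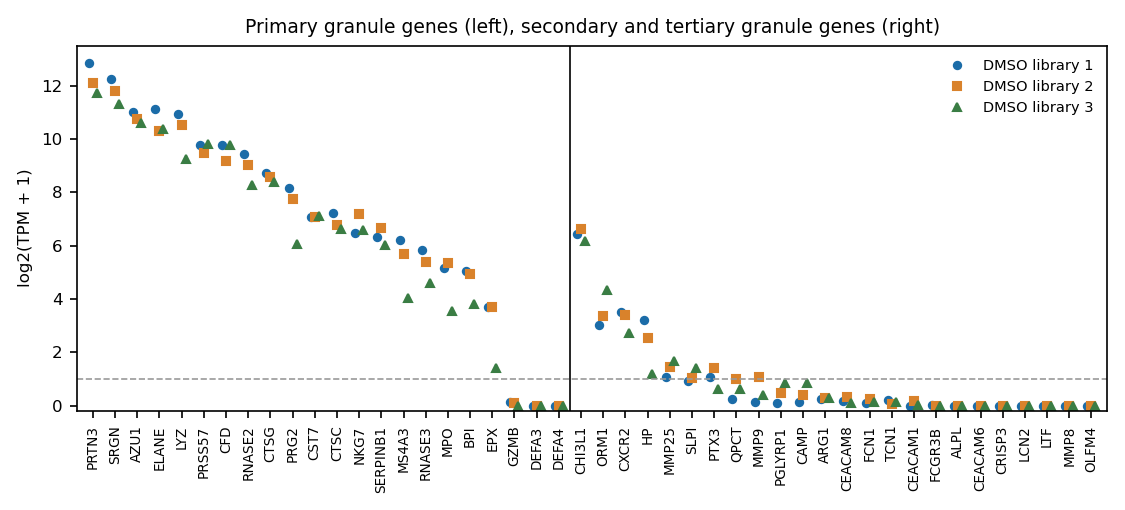
The plot gives log2(TPM + 1) in each of the 3 MOLM-13 DMSO libraries for 22 primary granule genes (left of the line) and 24 secondary and tertiary granule genes (right), sorted by mean level within each set. PRTN3 reaches 7490.3 TPM in library 1, while 15 of the 24 genes on the right lie under the dashed line at 1 TPM in all 3 libraries.

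The serine protease family genes with the highest levels sit side by side on chromosome 19p. AZU1, PRTN3, ELANE and CFD lie within 38534 bases (chr19:825097-863630, GRCh38 with GENCODE release 29), all on the plus strand, with PRSS57 further out on the minus strand (chr19:685546-695498). Among the 13 protein-coding genes from PRSS57 to ARID3A, 7 were at 100 TPM or more in all 3 libraries, against 3.67% of all protein-coding symbols (702 genes). The other 2 of those 7 were PTBP1, a splicing regulator, at 351, 273 and 203 TPM and PLPPR3, a membrane protein gene studied mainly in neurons, at 318, 248 and 226 TPM. PALM, MISP and KISS1R, in the same stretch, were low, at up to 0.849, 0.16 and 0.23 TPM. ARID3A, beyond the protease family genes, was at 39.2, 42.4 and 29.96 TPM. The stretch was chosen after the values of its genes were known.

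To show what lies before these genes, the 100 bases ahead of the annotated start of 2 abundant primary granule genes and of 1 secondary granule gene listed at 0 are given below from RefSeq (GRCh38.p14), 5′ to 3′ on the gene's strand. PRTN3 is at chr19:840899-840998 (plus strand), AZU1 at chr19:827737-827836 (plus strand, a RefSeq start inside the GENCODE gene) and LTF at chr3:46485235-46485334 (minus strand). Capitals mark matches to the PU.1 motif GAGGAA or to the C/EBP motif TTNNGNAA, searched on both strands.
PRTN3: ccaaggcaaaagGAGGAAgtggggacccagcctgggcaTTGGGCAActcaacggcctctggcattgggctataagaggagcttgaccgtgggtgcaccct
AZU1: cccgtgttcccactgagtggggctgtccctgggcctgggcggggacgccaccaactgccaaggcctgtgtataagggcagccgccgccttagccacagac
LTF: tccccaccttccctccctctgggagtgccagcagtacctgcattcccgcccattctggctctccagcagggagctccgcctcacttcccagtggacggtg
Among the printed windows only that of PRTN3 holds both motifs, the PU.1 match beginning 88 and the C/EBP match 62 bases before the start. Further out, LTF also holds both, the C/EBP match beginning 127 and the PU.1 match 203 bases before its start. AZU1 has a C/EBP match beginning 111 bases before its start. The windows of CFD and PRSS57, abundant and on 19p as well, are not printed and held neither motif in the 250 bases before the start. In the same stretch CAMP held a PU.1 match and LCN2 a C/EBP match. In the 250 bases before the start, the C/EBP letters were found in 7 of the 12 primary granule promoters with a sequence, in 10 of 19 secondary and tertiary ones and in 27.2% of all 14697 protein-coding promoters. The PU.1 letters were in 3 of 12, 9 of 19 and 23.4%. The motif letters thus occurred in both granule lists, expressed or not, and a match is a description of the letters only.

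Genes of the phagocyte oxidase and other effector functions were expressed in 19 of 20 cases. CYBA, the small subunit of the oxidase's membrane core, was at 1057, 749 and 1206 TPM, and RAC2, its GTPase, at 341, 558 and 316 TPM. CYBB, the large catalytic subunit, was much scarcer at 4.94, 8.91 and 6.13 TPM. NCF1 was at 64.3, 187 and 63.9 TPM, a value made uncertain by its near-identical pseudogenes. S100A4 was at 891, 886 and 684 TPM and ALOX5AP, of leukotriene synthesis, at 247, 449.7 and 362 TPM. The calprotectin genes S100A8 and S100A9, among the most abundant transcripts of mature monocytes and neutrophils, were at 13.5, 6.57 and 5.26 and 21, 16.1 and 3.12 TPM, and S100A12 was listed at 0.
Pattern receptors and their adaptors were expressed in 15 of 25 cases (60%, near the 54.1% of all symbols). TYROBP, which encodes the adaptor DAP12, was at 318, 358 and 520.1 TPM and PYCARD, the inflammasome adaptor, at 336, 296 and 381 TPM. NLRP3, an inflammasome sensor, was at 39.4, 37.3 and 23.1 TPM, and TLR2 and TLR4 at 17.5, 16.2 and 14.8 and 5.27, 5.36 and 3.05 TPM. TREM1 (0.767, 7.06 and 1.95 TPM) and LY96, the TLR4 co-receptor also called MD-2 (0.709, 3.25 and 2.45 TPM), were mixed and passed 1 TPM in libraries 2 and 3.

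Genes of MHC class I presentation were expressed in 16 of 18 cases. B2M, the invariant light chain, was at 1022, 971 and 892 TPM, and HLA-B and HLA-C had means of 90.7 ± 1.66 and 51.8 ± 13.1 TPM. The HLA genes are polymorphic and similar to each other, so the split of reads between them is uncertain. CALR, which encodes the chaperone calreticulin, had the widest range of the list between libraries, at 1329.8, 677 and 416 TPM.
MHC class II genes were expressed in 13 of 20 cases (65%, against 54.1% of all symbols). The invariant chain CD74 was at 344, 301 and 392 TPM and HLA-DRA at 32.1, 15.5 and 31.99 TPM. CIITA, the class II master regulator, was at 2.07, 1.35 and 1.61 TPM. HLA-DRB1, the partner chain of HLA-DRA, stayed at or under 0.566 TPM, and HLA-DPA1 and HLA-DPB1 under 1 TPM. CD80, a co-stimulatory ligand, was mixed at 0.526, 1.12 and 1.09 TPM, while CD86 was expressed at 7.36, 19.1 and 14.3 TPM.

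Markers of other blood and tissue cells were checked list by list. Over all these lists together 32 of 158 genes were expressed. No member of the 14 megakaryocyte markers and none of the 18 B and plasma cell markers was expressed, although 3 and 4 were mixed. PF4, PPBP and SELP, of platelets, and MS4A1, VPREB1 and DNTT, of B cells, were listed at 0. Of the mixed ones, GP1BB was at 5.05, 0 and 1.86 TPM, GP1BA at 1.18, 0.976 and 1.92 TPM and VWF, the von Willebrand factor gene, at 0.0308, 1.31 and 0.0644 TPM. IGLL1, a surrogate light chain gene of pre-B cells, was at 18.3, 8.73 and 0.841 TPM, BLNK at 1.18, 0.627 and 0.314 TPM and CD79B at 0.442, 1.21 and 0.195 TPM. IGLL1 was thus the 1 B-lineage gene over 2 TPM, in libraries 1 and 2.
Of 20 T and NK cell markers 3 were expressed. NKG7, which is also a granule membrane gene, was at 89.1, 145 and 95.1 TPM, CD3D, a T cell receptor subunit, at 3.09, 17.03 and 15.8 TPM and LAT at 1.88, 5.35 and 2.95 TPM. CD3E and CD3G, the partners of CD3D, stayed at or under 0.0835 and 0.151 TPM, and CD2, LCK and CD8B were listed at 0. GNLY was mixed at 1.76, 0.177 and 0.678 TPM.

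Of 10 eosinophil markers 4 were expressed, all genes of cationic granule proteins. RNASE2, which encodes a secreted ribonuclease, was at 703, 521 and 309 TPM, PRG2, the major basic protein, at 287, 217 and 65.98 TPM, RNASE3 at 56.9, 40.9 and 23.1 TPM and EPX, eosinophil peroxidase, at 11.98, 12.02 and 1.65 TPM. All 4 were lowest in library 3. PRG3 was mixed at 1.01, 0.763 and 0 TPM, and CLC, SIGLEC8, CCR3 and IL5RA, which define mature eosinophils, were low. Of 12 mast cell and basophil markers 2 were expressed, GATA2 and TPSB2 (2.10, 6.002 and 5.30 TPM), whose value cannot be separated firmly from that of its near copy TPSAB1 (0.13, 0.598 and 1.42 TPM).
Of 20 monocyte and macrophage markers 10 were expressed (50%). Among them were LYZ, CD68, CSF1R and the Fc receptor gene FCGR1A (26.3, 36.9 and 19.7 TPM). The complement genes C1QA, C1QB and C1QC were low, and MARCO was mixed at 0.665, 1.17 and 0.827 TPM. Dendritic cell markers were expressed in 8 of 18 cases (44.4%), led by IRF8 and FLT3. CLEC9A, CD207, CD1C and CLEC4C, which define dendritic subsets, were low. SIGLEC6 was at 3.77, 10.4 and 7.87 TPM and IRF7 at 8.62, 13.98 and 12 TPM.
Of 16 endothelial and stromal markers 2 were expressed, the broadly used cytoskeletal genes VIM (376, 945 and 327 TPM) and ACTA2 (7.60, 8.60 and 8.53 TPM), and TAGLN was mixed at 0.709, 0.602 and 1.01 TPM. Of 16 epithelial, liver and neuronal markers 2 were expressed, the keratin genes KRT18 (10.99, 12.1 and 6.24 TPM) and KRT8 (2.32, 3.49 and 2.55 TPM), and SNAP25 was mixed at 1.29, 0.616 and 0.389 TPM.

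Erythroid markers set library 3 apart. TFRC, the transferrin receptor of all dividing cells, was the 1 expressed member of 18, at 163, 169 and 73.04 TPM, and 6 were mixed, all of them globin genes. HBA1 was at 0, 0.439 and 95.2 TPM, HBG2 at 0, 0 and 75.01 TPM, HBA2 at 0, 0 and 60.9 TPM and HBB at 0, 0 and 52.1 TPM, so that their transcripts were found almost only in library 3. HBG1 was at 0, 0 and 4.17 TPM and HBD at 0, 0.2 and 1.08 TPM. The 6 genes together summed to 0, 0.640 and 288 TPM. HBA1 and HBA2, and HBG1 and HBG2, are near-identical copies, so the split between them is uncertain. Among red cell genes other than globins, ALAS2, the haem synthesis enzyme of erythroblasts, was at 0, 0 and 0.785 TPM, AHSP, the alpha globin chaperone, at 0, 0 and 0.713 TPM, SLC4A1, the anion exchanger, at 0.0113, 0.057 and 0.679 TPM and KLF1 at 0.116, 0.193 and 0.613 TPM. All were highest in library 3 and below 1 TPM, and another red cell membrane gene, GYPB, reached 0.441 TPM there. The part of other cells or of other RNA in the globin values of library 3 was not tested.

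Genes with recurrent mutations in acute myeloid leukaemia were expressed in 29 of 30 cases, KIT being the exception. NPM1, the nucleolar chaperone, was at 1584, 1502 and 1268 TPM, WT1, a blast antigen and transcription factor, at 22.4, 27.5 and 18.2 TPM and DNMT3A at 9.95, 14.6 and 10.6 TPM.
Genes of the BCL2 family, which includes both promoters and inhibitors of cell death, were expressed in 14 of 16 cases. BAX, which permeabilises mitochondria, was at 265, 179.9 and 359 TPM, MCL1, which opposes it, at 91.6, 92.3 and 58.8 TPM and BCL2, the target of venetoclax, at 43.5, 58.2 and 54.6 TPM. BCL2L1, another inhibitor of cell death, was at 12.1, 11.5 and 8.005 TPM and BCL2A1 at 3.64, 14.1 and 8.97 TPM.
Cell-cycle inhibitor and DNA damage response genes were expressed in 15 of 18 cases, with CDKN1A, which encodes p21, at 141, 254 and 221 TPM and CDKN2C at 186, 158 and 123 TPM. CDKN2A, which encodes p16 and ARF (chr9:21967753-21995301), was listed at 0 in all 3 libraries, and its neighbour CDKN2B (chr9:22002903-22009363) reached 0.0141 TPM. On the other side of CDKN2A, MTAP (chr9:21802543-21937651) was expressed at 11.2, 7.94 and 7.07 TPM. DMRTA1, beyond CDKN2B (chr9:22446841-22455740), was listed at 0. RNA values alone do not show whether a gene is deleted or silent. CDKN1C was mixed at 0.105, 2.15 and 0.289 TPM.

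The most abundant protein-coding genes were those of the ribosome. Of the 30 genes with the highest mean TPM, 25 encode cytosolic ribosomal proteins, and the 30 held 17.5%, 18.9% and 25.5% of all TPM (20.6% ± 4.24). RPS18 led at 11467, 12029 and 16752 TPM, followed by RPS27 at 6932, 7187 and 16332 TPM. Next came EEF1A1, which encodes the elongation factor that brings aminoacyl-tRNA to the ribosome. All 79 ribosomal protein genes were expressed. Together they made up 26.7%, 28.5% and 39.9% of the libraries (31.7% ± 7.16), so their share was largest in library 3. Ribosomal protein genes have many processed pseudogenes, so their values depend on how reads were shared out.
The other 5 of the 30 were EEF1A1 (9184, 10783 and 10309 TPM), TMSB4X (7847, 8913 and 6929 TPM), PRTN3, GAPDH (4128, 6988 and 3733 TPM) and FTL (4631, 5506 and 3439 TPM). TMSB4X encodes the actin-binding peptide thymosin beta 4, and FTL the ferritin light chain. PRTN3 was thus the 1 gene of a myeloid function among them. Next outside the ribosome came ACTB (4557, 4849.9 and 2881 TPM), PTMA, which encodes prothymosin alpha (4158, 4186 and 3039 TPM), and SRGN. LGALS1, the galectin 1 gene, was at 1570.5, 3274 and 2475 TPM. A set of 99 genes held 50% of the protein-coding TPM.

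Transcripts of ribosomal proteins and elongation factors are known to begin with a C and a run of pyrimidines, the 5′ terminal oligopyrimidine tract through which their translation is regulated. The first bases of some of the most abundant transcripts are given below from RefSeq (GRCh38.p14), 10 bases before the annotated start and 15 from it, on the gene's strand, to show the tract where it occurs. Capitals mark a run of C and T that begins with a C at the annotated start and has at least 4 more pyrimidines.
RPS18: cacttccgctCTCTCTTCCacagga
RPS27: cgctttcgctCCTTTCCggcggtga
EEF1A1: cgtgaacgttCTTTTTCgcaacggg
RPL13A: aaacctcctcCTTTTCCaagcggct
RPLP1: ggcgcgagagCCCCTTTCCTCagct
RPS28: gaagcacgtgactcctctccgccag
TMSB4X: cccgcccgacaactcggtggtggcc
GAPDH: gtgcatccctgtccggatgctgcgc
The sites are RPS18 chr6:33272065-33272089, RPS27 chr1:153990752-153990776, RPL13A chr19:49487598-49487622, RPLP1 chr15:69452808-69452832, RPS28 chr19:8321486-8321510, TMSB4X chrX:12975100-12975124 and GAPDH chr12:6535254-6535278 on the plus strand, and EEF1A1 chr6:73521018-73521042 on the minus strand. RPS28 has no such run at its annotated start, at 5272, 6313 and 15199.8 TPM, and neither have TMSB4X and GAPDH. Of 63 ribosomal protein genes with a sequence, 43 had the run (68.3%), as did 7 of 21 translation factor genes. It was found in 5.29% of 8246 other expressed genes, in 3.01% of 5844 low genes and in 4.66% of all 14697 protein-coding genes with a sequence. Of the 30 most abundant genes, 23 had a sequence and 16 of them the run. An annotated start can differ by some bases from the start used in these cells, so a missing run says only that the letters are not at that position.

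The 3 libraries resembled each other closely over genes, with Pearson's r of log2(TPM + 1) of 0.968, 0.963 and 0.969 for libraries 1 and 2, 1 and 3, and 2 and 3 over the 10347 expressed genes, which are not independent of each other. No 2 libraries held identical values. The median CV of expressed genes was 22.3% (quartiles 15.0% and 30.8%), and the highest library exceeded the lowest by less than 1.5-fold in 45.3% of genes, by less than 2-fold in 84.1% and by 5-fold or more in 56 genes. The spread depended little on the level, with a median CV of 22.5% for the 1800 genes with a mean of 1 to 5 TPM and 17.6% for the 104 genes at 1000 TPM or more.
The libraries differed in the level of the typical gene. Of the expressed genes 61.7% were highest in library 1, 25.3% in library 2 and 13% in library 3, and the median expressed gene stood at 17.9, 15.8 and 13.3 TPM. TPM are shares, and the libraries differed in what the most abundant entries took. Besides the ribosomal protein genes, the entries MIR6723 and MIR4461 took 17.6%, 19.9% and 13.2% of the libraries. These entries carry microRNA names, but which RNA their reads came from was not tested, so the shares are not read as microRNA levels. RN7SK and RN7SL entries, abundant short noncoding RNAs, took 0.181%, 0.251% and 1.22%. After scaling by median-of-ratios factors, which brings the typical gene to 1 level, 35.4%, 32.1% and 32.5% of expressed genes were highest in libraries 1, 2 and 3, and the median CV was 17.3%. The deviations below are therefore given relative to the median of all expressed genes, which was 0.19, 0.01 and -0.19 (log2).

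**Figure D5:**
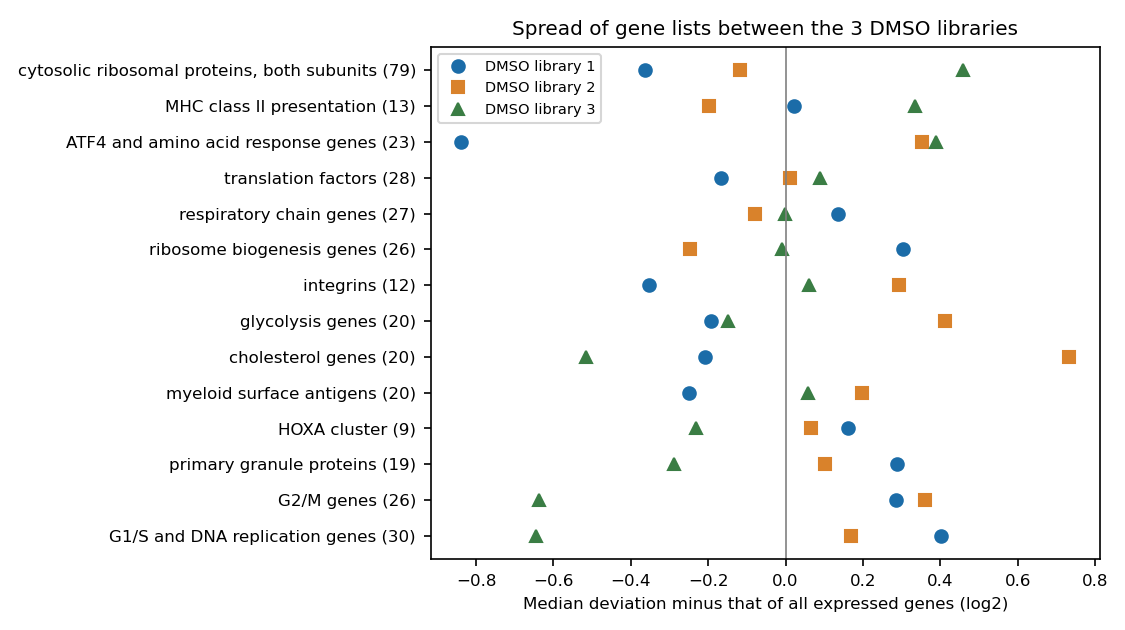
For each gene list (number of expressed members in brackets), the x axis is the median over members of log2(TPM + 1) minus the mean of the 3 MOLM-13 DMSO libraries, less the same median over all expressed genes. Each symbol is 1 library. G1/S genes lie at 0.40, 0.17 and -0.64, cholesterol genes at -0.21, 0.73 and -0.52, ATF4 and amino acid response genes at -0.84, 0.35 and 0.39 and ribosomal proteins at -0.36, -0.12 and 0.46 for libraries 1, 2 and 3.

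Gene groups differed in what remained. Proliferation genes were lowest in library 3. The relative deviation of 30 G1/S and DNA replication genes was 0.40, 0.17 and -0.64, and that of 26 G2/M genes 0.29, 0.36 and -0.64. PCNA, the sliding clamp of DNA polymerase, was at 472, 288 and 168 TPM, MCM4, of the replicative helicase, at 287, 175 and 70.3 TPM, and MKI67, the proliferation antigen Ki-67, at 39.1, 32.4 and 8.26 TPM. No gene of either list was highest in library 3, in the deposited values or after scaling, against 13% and 32.5% of all expressed genes.
Ribosomal proteins went the other way, with a relative deviation of -0.36, -0.12 and 0.46, and 72 of 79 were highest in library 3 (77 after scaling). The widest ranges were those of RPS28 (5272, 6313 and 15199.8 TPM), RPS21 (2592, 2673 and 7364 TPM) and RPS29 (3396, 3293 and 9269 TPM). Among ribosomal protein genes the deviation in library 3 was 0.75 for the 7 with a median coding transcript under 500 bases, 0.49 for the 45 from 500 to 750 bases and 0.36 for the 20 from 750 to 1000 bases. For 71 other expressed genes under 500 bases it was 0.14. The part of transcript length in these shares was not tested.

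Cholesterol and glycolysis genes were mostly highest in library 2. The 20 expressed cholesterol genes deviated by -0.21, 0.73 and -0.52, and 18 of them were highest in library 2 (19 after scaling), against 25.3% of all expressed genes. HMGCS1, the enzyme ahead of HMG-CoA reductase, was at 26.5, 83.6 and 15.8 TPM and SQLE, squalene epoxidase, at 101, 240.5 and 56.5 TPM. The 20 expressed glycolysis genes deviated by -0.19, 0.41 and -0.15, with 17 highest in library 2 (18 after scaling). ALDOC, an aldolase, was at 23.7, 181 and 55.6 TPM and SLC2A3, a glucose transporter, at 23.02, 145 and 44.6 TPM. The integrin list, with FERMT3, deviated by -0.35, 0.29 and 0.06, with library 1 farthest from the others, and chemoattractant receptors by -0.15, 0.30 and -0.10.
Among the 5856 genes at 10 TPM or more in every library, 13 of the 15 with the largest CV were highest in library 2. They included PLIN2, a lipid droplet coat gene (14.4, 83.7 and 13.5 TPM), NDRG1 (98.3, 729 and 244 TPM), BNIP3 (36.2, 129.6 and 41.1 TPM) and BNIP3L (24.4, 86.3 and 29.98 TPM), mitophagy receptors, the fatty acid genes FADS2 (64.6, 150.4 and 33.5 TPM) and ACSS2 (23.4, 78.1 and 20.8 TPM), and TUBA1A (62.5, 208 and 50.5 TPM), CYTIP (11.7, 63.9 and 16.4 TPM) and ZNF395 (36.2, 108 and 30.4 TPM). The 2 exceptions were FOS, highest in library 1, and DDIT4, a stress-induced inhibitor of mTORC1, highest in library 3 at 19.7, 118 and 199 TPM.

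Library 1 was low in amino acid response genes and high in ribosome assembly genes. The 23 expressed targets and partners of ATF4 deviated by -0.84, 0.35 and 0.39, and none was highest in library 1, against 61.7% of all expressed genes. Not every member was low in library 1, since XPOT, also on this list, stood at 58.7, 59.1 and 59.3 TPM. ASNS, asparagine synthetase, was at 14.95, 66.8 and 74.96 TPM and PHGDH, the first enzyme of serine synthesis, at 38.7, 169.7 and 174 TPM. The factor gene ATF4 was at 311, 591 and 449 TPM. CHAC1, STC2 and SLC7A11 were mixed, each under 1 TPM in library 1, with CHAC1 at 0.494, 10.1 and 18.8 TPM, STC2 at 0.197, 2.93 and 10.7 TPM and SLC7A11 at 0.599, 4.55 and 3.57 TPM.
The 26 ribosome biogenesis genes deviated by 0.30, -0.25 and -0.01, and all 26 were highest in library 1 (21 after scaling). NCL, nucleolin, was at 914, 594 and 478 TPM and NOP56 at 322, 179.8 and 179 TPM. Respiratory chain genes deviated by 0.14, -0.08 and -0.00, with 26 of 27 highest in library 1 as deposited and 18 after scaling, so that count moved with the scaling.

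In relative deviation of the list, primary granule and HOXA genes moved less than the proliferation, cholesterol and ATF4 genes. They were not steady gene by gene. Their median CVs were 35.0% and 31.8%, against 22.3% for all expressed genes. The median CV was 35.8% for ATF4 genes, 43.9% for G2/M genes, 49.2% for G1/S genes and 51.5% for cholesterol genes. Primary granule genes deviated by 0.29, 0.10 and -0.29, which places library 1 highest and library 3 lowest, and HOXA genes by 0.16, 0.06 and -0.23. The 5 serine protease family genes AZU1, PRTN3, ELANE, CFD and PRSS57 together took 1.36%, 0.867% and 0.805% of the libraries. All primary granule genes took 2.25%, 1.55% and 1.24%. Among the 15 steadiest genes at 10 TPM or more was CST7, the cystatin F gene of primary granules, at 135, 135 and 136 TPM (CV 0.566%), beside the tRNA exporter XPOT at 58.7, 59.1 and 59.3 TPM (CV 0.493%) and EXOSC8, of the RNA exosome, at 66.3, 66.6 and 65.9 TPM (CV 0.5%). The remaining 12, with CVs of up to 1.48%, included STK32C, UPK3BL1, PDXK, ATP5G2, SF3A2, MPST, RNF5, BTF3L4, R3HDM4, LENG1 and PRKRIP1. They are given as a description of these 3 libraries.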

How the data were processed

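Per the labels' protocols, RNA came from RNeasy columns and the libraries from a commercial service. The authors deposited TPM per gene symbol for all MOLM-13 libraries in 1 table, estimated with Salmon, with hg38 among the builds named, per the submitters' processing notes. Salmon's version, the gene annotation and read depths: not given in the sources used here. Columns were matched to samples by treatment and number, and 0 were left unassigned.

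Of 27800 symbols, 19110 were protein-coding by RefSeq or GENCODE release 29. From the TPM were computed classes at 1 TPM, means and SDs over 3 libraries, CVs, shares, and list deviations of log2(TPM + 1). No test was run, since there is 1 group. Promoter sequences were taken from RefSeq. Python 3.11.15, numpy 2.4.6, pandas 2.3.3 and matplotlib 3.10.9 were used, and the calculations were tested on simulated data.

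The libraries and the 54 gene lists were chosen with earlier results of these data known. Named genes were the 30 most abundant, the 5 most abundant members of each list, mixed members, low members that define another lineage, the 15 genes at each end of the CV ranking at 10 TPM or more, and fixed genes such as FLT3 and KAT6A. Some of these are not reported here, and other members named as examples were chosen after their values were seen. Alternatives were other thresholds, scalings, pseudocounts and filters, and leaving out each library.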

Additional observations from a re-analysis of the deposited data

How the results depend on the processing

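Of 323 combinations of a main value and an alternative, 316 stayed within the spread between libraries, or within 1.5 times for a count. At 5 TPM in place of 1 TPM, 18 of the cell type markers counted as expressed in place of 32, and the counts of 12 single lists changed by over 1.5 times, among them myeloid transcription factors (19 in place of 29), pattern receptors (7 in place of 15), cytokines (6 in place of 12) and monocyte and macrophage markers (6 in place of 10). Of all protein-coding symbols 41.4% were expressed at 5 TPM, in place of 54.1%. Pattern receptors (7 of 25) then lay below the share of all symbols, while at 1 TPM they lay above it. The share of the 30 most abundant genes was 25.2% after removing small RNA entries and 12.4% after removing ribosomal protein genes, against 20.6%. The median CV was 17.3% under median-of-ratios scaling and 28.2% with no filter on low values, against 22.3%. Leaving out 1 library gave a median CV of 16.1% (without library 3) to 23.2%, with 17.2% without library 1, and 10406 to 10509 expressed genes, since 2 libraries are a looser demand than 3. The ribosomal protein share ranged from 27.6% (without library 3) to 34.2%. Relative deviations over 2 libraries are equal and opposite, so a library that lay between the others changed sign, such as library 1 for G2/M genes (0.29 with all 3, -0.04 without library 3). The mean of a named gene stayed within 1 SD in 5478 of 6443 combinations, and a list's count within 1.5 times in 524 of 550. No paired analysis was possible because 1 group was described and no test was run. The depth is unknown, so a value listed at 0 does not show absence.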

Other observations

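Genes induced by interferon were partly on, with 17 of 27 expressed (63.0%, against 54.1% of all symbols), 8 mixed and 2 low. BST2, which encodes tetherin, was at 219, 172 and 239 TPM, and ISG15, the ubiquitin-like modifier, at 29.8, 31.2 and 31.6 TPM. IFIT1, IFIT2 and IFIT3, which bind viral RNA or its complexes, were mixed, with IFIT3 at 0.909, 8.78 and 3.07 TPM, IFIT2 at 0.7, 4.81 and 2.05 TPM and IFIT1 at 0.219, 1.42 and 0.617 TPM. The list deviated from all expressed genes by -0.36, 0.06 and 0.30 in libraries 1, 2 and 3, so library 1 lay lowest.

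Immediate early and NF-kB genes did not move as 1 group between libraries, with a relative deviation of -0.36, 0.24 and -0.02. FOS (209, 35.5 and 13.3 TPM), FOSB (16.6, 1.06 and 0.876 TPM) and DUSP1, a MAP kinase phosphatase gene (16.02, 6.40 and 1.92 TPM), were highest in library 1. JUN (3.27, 9.29 and 2.59 TPM), IER3 (7.69, 42.5 and 22.5 TPM), TNFAIP3, a brake on NF-kB (11.7, 37.4 and 19.7 TPM), and EGR3 (0.318, 5.76 and 0.599 TPM) were highest in library 2.

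Genes often used as references in quantitative PCR differed in their spread between libraries. All 18 of that list were expressed. GAPDH had a CV of 35.9%, ACTB of 25.9%, TFRC of 39.8% and B2M of 6.81%, against a median of 22.3% over all expressed genes.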
